A study of Macaca nemestrina with 58 samples.

Results

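Late follicular baseline biopsies of the vagina were compared with early follicular ones in pig-tailed macaques (Macaca nemestrina). Samples were assigned by the cycle phase on their labels, without reference to any measured value, which gave 5 late follicular and 10 early follicular samples among the 57 samples of the series. Each was a vaginal pinch biopsy from an animal that had not yet received a hormonal contraceptive, with a labelled dose of 0. The animals went on to arms labelled LNG (levonorgestrel) or DMPA (depot medroxyprogesterone acetate, an injected progestin), and the arm here only says which animals they were. The late follicular group held 3 animals of the later LNG arm and 2 of the later DMPA arm, and the early follicular group held 3 and 7. The samples came from 14 animals, of which 1 (PHQ1) gave a biopsy in both phases. Late follicular replicate 1 was measured on 2 arrays, one labelled as a duplicate, and their mean was used. The labels do not say whether the duplicate was a second biopsy, extract or hybridization, and it differed from its partner about as much as separate animals did (SD of differences 0.486, against 0.443 to 0.629 between late follicular animals). Strain, age, hormone levels and the day of the cycle are not given in the sources used here.

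In primates the follicular phase runs from menses to ovulation, and estradiol secreted by the growing follicle climbs through it to a peak before ovulation while progesterone stays low. Estradiol acts on the vagina through the estrogen receptor, encoded by ESR1. It is known for thickening the stratified squamous epithelium, for driving its upper layers to flatten and cornify, and for glycogen storage. The study's title asks how contraceptives bear on factors of HIV susceptibility, and the baseline phases give the range of the natural cycle.

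RNA was read on Affymetrix arrays whose probes follow the rhesus macaque, a related species, so a probe can read a transcript of the pig-tailed macaque less well. All values are the deposited log2 values, on which a difference of 1 is a 2-fold difference. Array medians of the 15 samples lay between 6.07 and 6.24. Squamous epithelium was plain in both phases: KRT13, a keratin of non-keratinized squamous epithelium, was between 14.02 and 14.11 in late follicular samples and between 13.54 and 14.19 in early follicular ones. TP63, the transcription factor of squamous stem cells, was between 12.06 and 12.28 against 11.82 to 12.32. Other cells were present too, and the collagen gene COL1A1 ranged from 9.83 to 13.50 against 7.88 to 13.76. The defining Langerhans cell genes CD207 and CD1A lay under the brightness filter. For the GAPDH control probe sets the 3′ signal minus the 5′ signal, which grows as RNA degrades, averaged 1.50 ± 0.24 in late follicular and 1.57 ± 0.20 in early follicular samples (SD, n = 5 and 10; exact two-sided permutation test, p = 0.573). That of actin averaged 1.17 ± 0.08 against 1.20 ± 0.19 (p = 0.970 by the same exact test).

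No gene passed the test between the 2 phases. Of 31624 probe sets tested with limma, 0 passed at a Benjamini-Hochberg adjusted p under 0.05 (0%), and the smallest adjusted p of any was 0.261. An unadjusted p under 0.05 was found for 2328 probe sets (7.36%), of which 1252 were higher (3.96%) and 1076 lower (3.40%) in late follicular samples. A share of 5% would be 1581. With arrays centred on their medians the split was 906 higher and 1444 lower, so neither direction prevailed across scalings. Without late follicular replicate 5, from PHQ1, the unadjusted count was 1056. The median log2 difference over all probe sets was 0.01. The precision was fair for most of the array: the 95% interval of the difference had a median half-width of 0.34, and 87.7% of probe sets had an interval wholly inside a 2-fold change in either direction. For 63.0% it lay inside a 1.5-fold change. Some of the gene lists described below were less precise. The median half-width was 1.06 for cornified envelope genes and 1.04 for epithelial proteases and inhibitors. For extracellular matrix genes it was 1.10 and for fibroblast genes 1.11, so a 2-fold difference lay within many of these intervals. The 5 late follicular values lay wholly outside the 10 early follicular values for 17 probe sets (0.0538%), 7 above (0.0221%) and 10 below (0.0316%).

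The probe set with the lowest p belonged to ZNF471, a zinc finger gene, and was chosen for description after its values were seen. It read 6.84, 7.23, 6.81, 6.89 and 6.85 in late follicular replicates 1 to 5, against a lowest value of 5.92, a median of 6.30 and a highest of 6.68 in early follicular samples. The groups did not overlap, and the log2 difference was 0.56 ± 0.10 (SE; limma adjusted p = 0.261). The other ZNF471 probe sets had differences of 0.62, 0.41, 0.59 and 0.23, all above 0. The brightest of them, at 0.23 ± 0.31, overlapped: it read 8.31, 8.61, 8.98, 8.69 and 7.66 in late follicular samples against 6.79, 8.03 and 8.62. Without early follicular replicate 4, the biopsy of PHQ1, the lowest-p probe set passed, with a log2 difference of 0.63 ± 0.10 and a limma adjusted p of 0.0421.

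Among genes represented by their brightest probe set, the 10 with the smallest p in each direction were taken in turn, and none passed (limma adjusted p = 0.67 for each). PRKACA, the catalytic subunit alpha of protein kinase A, read 8.36, 8.42, 8.40, 8.52 and 8.50 in late follicular samples, against 7.98, 8.14 and 8.35 as the lowest, median and highest early follicular values. All late follicular values lay above all early follicular ones, by little, and the log2 difference was 0.33 ± 0.09. ROBO2, a receptor for Slit guidance cues, read 9.11, 9.42, 9.56, 9.33 and 9.17 against 8.05, 8.70 and 9.22, a difference of 0.60 ± 0.16 with a narrow overlap. TRIOBP, which binds actin, had a difference of 0.47 ± 0.14, and CPSF1, a subunit of the complex that cleaves pre-mRNA for polyadenylation, one of 0.32 ± 0.09. The others on this side were PDIK1L, LOC711099, MROH1, ZNF839, NPFF and ZNF177, between 0.37 for LOC711099 and 0.74 for PDIK1L.

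On the lower side, TIMM21, part of the protein import machinery of the mitochondrial inner membrane, read 8.28, 8.12, 8.18, 8.14 and 8.02 in late follicular samples, against 8.43, 8.63 and 8.83 for the lowest, median and highest early follicular values. Its groups did not overlap, and the log2 difference was -0.41 ± 0.09. SGMS1, a sphingomyelin synthase, had a difference of -0.64 ± 0.17, and PXN, the focal adhesion adaptor paxillin, one of -0.71 ± 0.21. ST3GAL6, a sialyltransferase, had the largest difference of these genes, -1.26 ± 0.37. It read 5.31, 5.89, 5.15, 5.87 and 5.33 against 5.37, 6.75 and 8.08, so that late follicular values sat in the lower end of the early follicular range. The others were RBM18, LOC696119, MEPCE, UBTD2, TMED1 and LYSMD3, between -0.40 and -0.65. Among probe sets with no overlap between the groups, ATP11B and BPHL lay above, and NUP58, ALG2, LAPTM4B, LOC697893 and both probe sets of NIFK, which encodes a nucleolar partner of Ki-67, lay below. These genes were named for that pattern after it was seen.

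**Figure D1:**
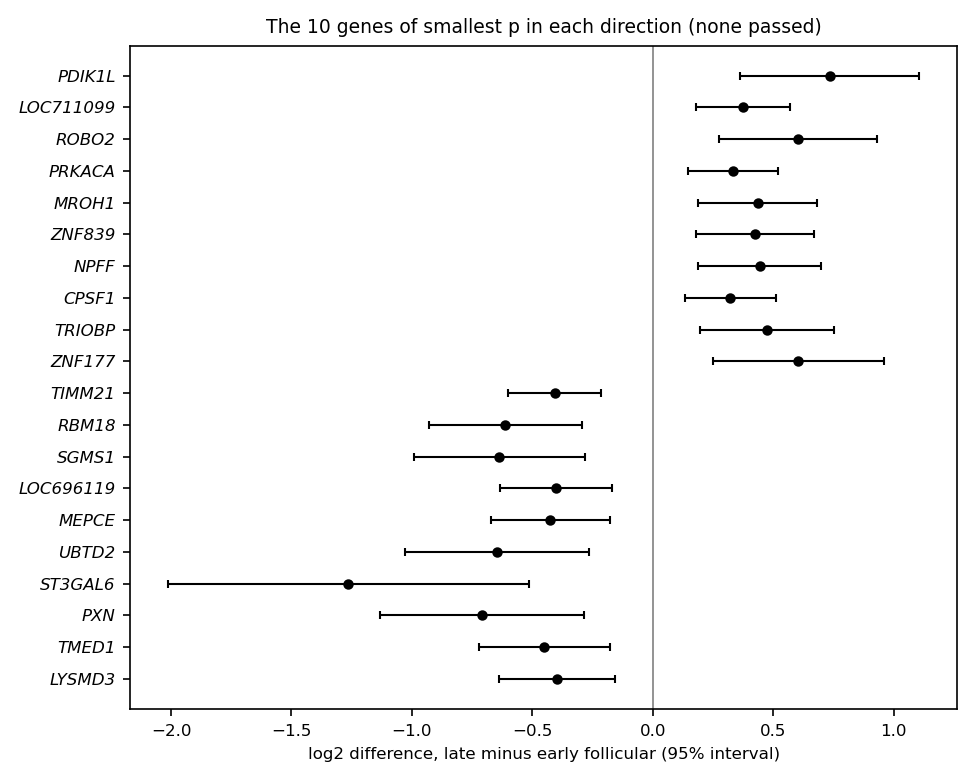
Log2 differences, late minus early follicular, with 95% intervals from the limma fit, for the 10 genes with the smallest p in each direction. The 20 intervals exclude 0 one at a time, but every adjusted p is 0.67; the differences run between -1.26 for ST3GAL6 and 0.74 for PDIK1L.

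The genes that carry and answer the estrogen signal did not separate the phases. ESR1, the estrogen receptor, read 10.76, 10.67, 11.13, 10.79 and 10.28 in late follicular samples, against 9.73, 10.72 and 11.10 for the lowest, median and highest early follicular values, with a log2 difference of 0.15 ± 0.21. PGR, the progesterone receptor and a target of estradiol, read 9.61, 8.54, 9.46, 9.0 and 9.92 against 6.83, 9.04 and 9.93, with a difference of 0.37 ± 0.38. GREB1, another target of the estrogen receptor, read 10.24, 9.40, 9.22, 10 and 10.24 against 8.74, 9.90 and 10.33, with a difference of 0.28 ± 0.30. All 3 overlapped broadly, and their 95% intervals reached 0.59 for ESR1, 1.15 for PGR and 0.89 for GREB1 on the upper side.

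Of 29 measured estrogen-responsive genes, 0 passed, 15 had a difference above 0 and 14 below, and the median was 0.04. Over all named genes 45.7% had a difference above 0, and over all probe sets 52.6%. The median lay between -0.05 and 0.08 with 1 sample left out at a time, and below 0 without early follicular replicate 3 or 5. An unadjusted p under 0.05 was found for 2 members, a share near that of all probe sets (7.36%), from which nothing is read about the list. They were CXCL12, a chemokine of stromal cells, with -0.89 ± 0.27, and XBP1, a transcription factor of the secretory pathway, with -0.24 ± 0.11. OLFM1, a secreted glycoprotein, had a difference of 0.47 ± 0.25. PADI1, an epidermal enzyme that converts arginine to citrulline in keratins and is also on the cornified envelope list, read 10.21, 9.46, 9.54, 9.71 and 10.73 against 7.45, 9.17 and 9.92. Its late follicular values all lay above the early follicular median, with a difference of 0.97 ± 0.54 and an interval between -0.13 and 2.08. The list mean was lowest in early follicular replicate 5, at 8.11, while the late follicular means lay between 8.58 and 8.95.

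The 12 measured steroid receptors and enzymes had a median difference of 0.04, between 0.01 and 0.09 with 1 sample left out at a time. HSD17B2, which converts estradiol to the weaker estrone, read 6.30, 9.30, 7.40, 8.92 and 8.76 in late follicular samples against 4.43, 6.92 and 10.38 in early follicular ones, a difference of 1.06 ± 0.82 with wide spread in both phases. The 19 progestin- and glucocorticoid-responsive genes had a median of 0.00, with 9 above 0 and 10 below, and the sign turned when any 1 of 4 samples was left out. FKBP5, a co-chaperone of steroid receptors induced by progestins and glucocorticoids, had a difference of -0.04 ± 0.18. SCNN1A, the alpha subunit of the epithelial sodium channel, had 0.43 ± 0.19, and DUSP1, a phosphatase that switches off MAP kinases, had -0.83 ± 0.31.

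**Figure D2:**
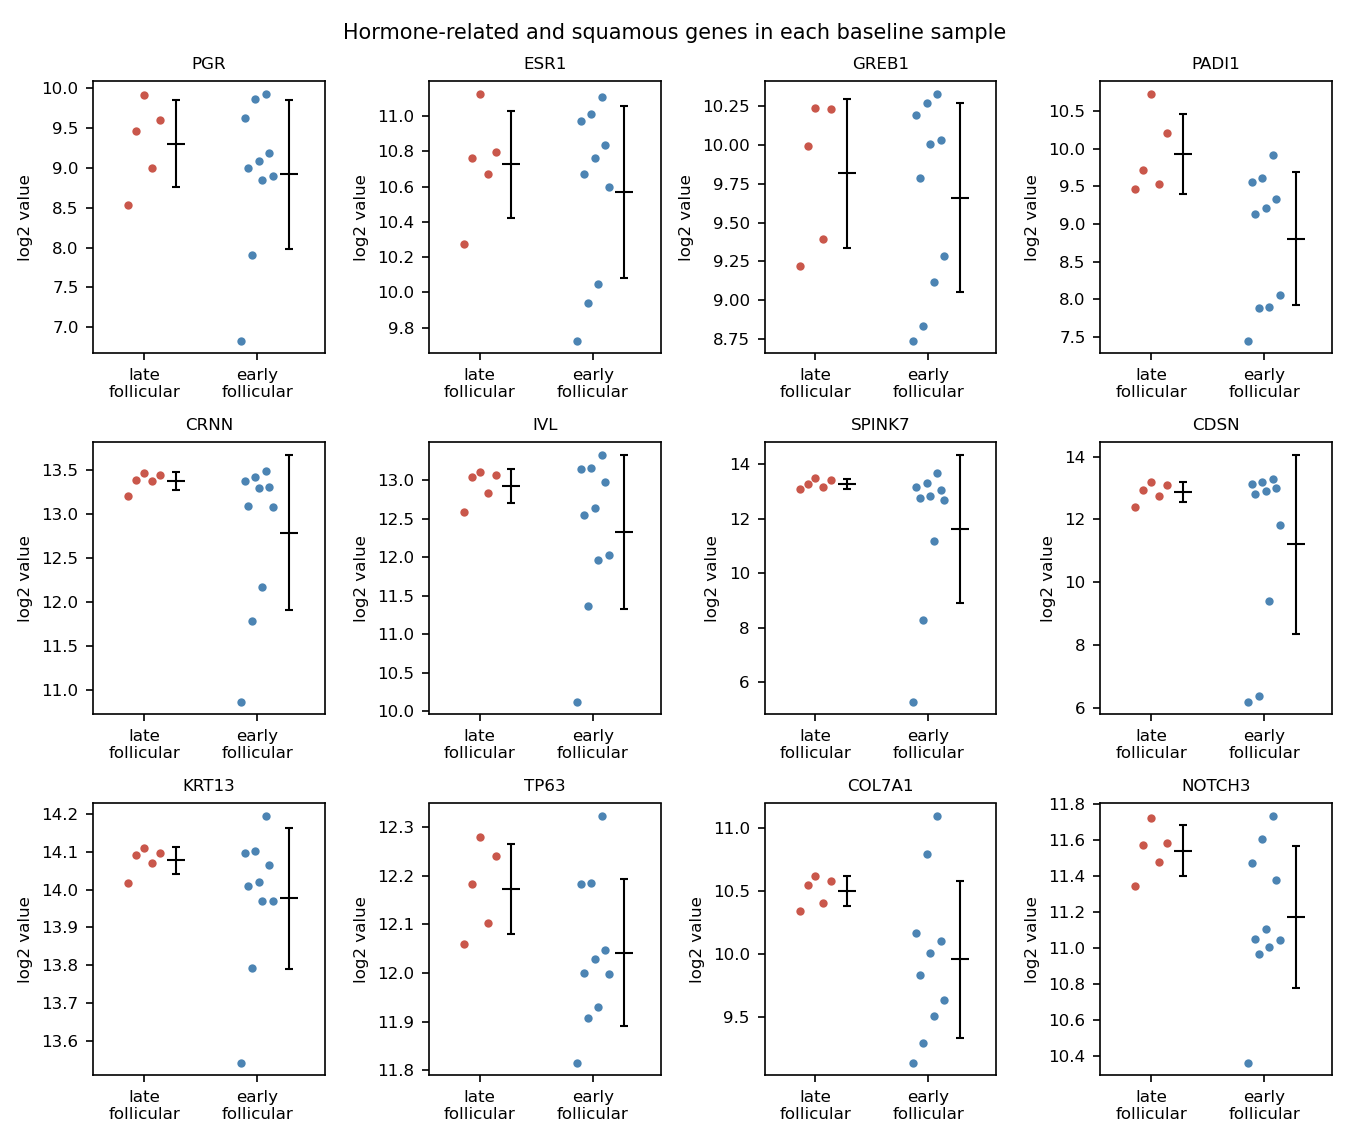
Log2 values of 12 genes in the 5 late follicular and 10 early follicular samples, 1 point per sample, with the mean and SD as a black bar beside them; each panel has its own scale. Late follicular values of CRNN, IVL, SPINK7 and CDSN sit close together among the higher early follicular values, whose range has a long lower tail. PGR, ESR1 and GREB1 overlap broadly.

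Cornified envelope genes, which build the protein shell of terminally differentiated squamous cells, were mostly close together in late follicular samples and variable in early follicular ones. CRNN, cornulin, read 13.47, 13.45, 13.38, 13.39 and 13.20 in late follicular samples, against 10.87, 13.20 and 13.49 for the lowest, median and highest early follicular values. IVL, involucrin, read 12.84, 13.11, 12.58, 13.07 and 13.03 against 10.12, 12.59 and 13.33. CDSN, corneodesmosin, which holds cornified cells together, read 12.95, 13.20, 12.40, 13.09 and 12.73 against 6.20, 12.85 and 13.30. In each case the late follicular samples lay among the higher early follicular values, and the early follicular median was close to them. The highest early follicular value exceeded every late follicular one in each gene. Late follicular replicate 3 of IVL and replicates 3 and 5 of CDSN lay below the early follicular median. The log2 differences were 0.38 ± 0.50 for CRNN, 0.25 ± 0.79 for IVL and 1.23 ± 1.18 for CDSN.

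LORICRIN, the chief protein of the envelope of keratinized epidermis, had the highest difference of the list, 1.74 ± 1.75. It read 13.30, 13.44, 13.20, 13.47 and 12.95 against 3.50, 12.93 and 13.55, so a level near the bottom of the scale occurred in an early follicular sample and in no late follicular one. Of the 24 measured genes of the list, of 49 listed, 0 passed and 0 had an unadjusted p under 0.05, while 19 had a difference above 0 and 5 below, with a median of 0.30. The list means were 11.75, 12.10, 11.62, 12.01 and 11.93 in late follicular samples, against 9.37, 11.79 and 12.02 in early follicular ones. Early follicular replicates 9 and 8 gave the lowest means, 9.37 and 10.29. Without replicate 9 the median difference of the list was 0.09, and without replicate 4 or 8 it was 0.20.

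The proteases and inhibitors of the epithelium, which govern the shedding of surface cells, had the same shape of values. SPINK7, an esophageal and squamous protease inhibitor, read 13.51, 13.08, 13.28, 13.42 and 13.15 in late follicular samples against 5.28, 12.80 and 13.67, with a log2 difference of 1.14 ± 1.34. SPINK6, an inhibitor of kallikreins, read 12.42, 13.39, 9.19, 13.31 and 13.04 against 4.15, 10.86 and 13.51, and here late follicular replicate 3 stood apart from the others. TMPRSS11B, a membrane serine protease of squamous epithelium, differed by 0.24 ± 0.68. Of 29 measured genes 0 passed, 22 had a difference above 0 and 7 below, and the median was 0.19, or 0.06 without early follicular replicate 9.

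Suprabasal keratins and markers gave late follicular list means of 12.15, 12.23, 12.18, 12.17 and 12.12, against 10.47, 11.99 and 12.18 in early follicular samples. All 5 late follicular means lay above the early follicular median. Their SD was 0.04, against 0.54 in early follicular samples, or 0.31 over the 9 other than replicate 9. The list had a median difference of 0.21 (0.07 without early follicular replicate 9), with 21 of 26 genes above 0 and 0 that passed. KRT13 differed by 0.07 ± 0.12 and KRT4, its partner keratin, by 0.13 ± 0.29. ALOXE3, a lipoxygenase of the epidermal water barrier, had the highest difference, 1.24 ± 1.08, and RHCG, an ammonium transporter of squamous mucosa, had 0.29 ± 0.23.

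Basal keratinocyte genes, squamous transcription factors and cell junction genes held a few of the smaller errors. COL7A1, the anchoring fibril collagen under the basal layer, read 10.58, 10.55, 10.40, 10.35 and 10.62 in late follicular samples against 9.14, 9.92 and 11.10 for the lowest, median and highest early follicular values. Its late follicular values lay together above the early follicular median, with a difference of 0.59 ± 0.24 (unadjusted p = 0.022, limma adjusted p = 0.674). NOTCH3, a receptor that promotes suprabasal fate, read 11.34, 11.73, 11.48, 11.59 and 11.57 against 10.36, 11.08 and 11.74, a difference of 0.34 ± 0.15. TP63 differed by 0.14 ± 0.08, and DSP, the desmosomal linker desmoplakin, by 0.20 ± 0.16. The medians were 0.06 for 11 basal genes, 0.12 for 25 transcription factors, of which 21 were above 0, and 0.07 for 28 junction genes. The basal median turned to -0.01 without early follicular replicate 6 or late follicular replicate 5, and without early follicular replicate 9 the transcription factor and junction medians were 0.07 and 0.03. DSG1, the desmoglein of upper squamous layers, differed by 0.44 ± 0.82, with 11.10, 12.36, 11.64, 11.99 and 11.89 against 7.71, 12 and 12.45.

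The spread between animals was smaller in late follicular samples over much of the array. The SD was smaller in late follicular samples for 70.9% of all probe sets, with a median SD of 0.26 against 0.33, and the share was 69.7% or 67.0% when only one of the arrays of late follicular replicate 1 was used. With 5 and 10 normally distributed values of equal spread this share would be 54.4%, since an SD of fewer values is more often the smaller one. For the cornified envelope it was smaller in 21 of 24 genes, with a median SD of 0.25 against 0.88. For proteases and inhibitors it was smaller in 29 of 29 (0.33 against 0.82), and for suprabasal genes in 25 of 26 (0.20 against 0.69). Genes of a list were read in the same samples and are not independent, so these counts cannot be read against 54.4%. The SD of the list mean was 0.20 against 0.88 for the cornified envelope and 0.18 against 0.92 for proteases and inhibitors. Over the 9 early follicular samples other than replicate 9 it was 0.60 and 0.68. The difference in spread was tested with limma on absolute deviations from each group's mean, scaled for group size, a test chosen after these values were seen. It gave 0 probe sets at an adjusted p under 0.05, with a lowest adjusted p of 0.058, and 2314 probe sets with a smaller and 655 with a larger late follicular spread at an unadjusted p under 0.05. With unequal group sizes these counts cannot be read against 5% or against equal numbers in each direction. Leaving out 1 sample at a time gave between 0 and 8 probe sets that passed, and without late follicular replicate 1 the unadjusted counts were 1625 and 1214. By list, the median SD was smaller in late follicular samples for 33 of 35 lists, which share their samples and some genes. The exceptions were proliferation (0.32 against 0.31) and blood (0.56 against 0.43).

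**Figure D3:**
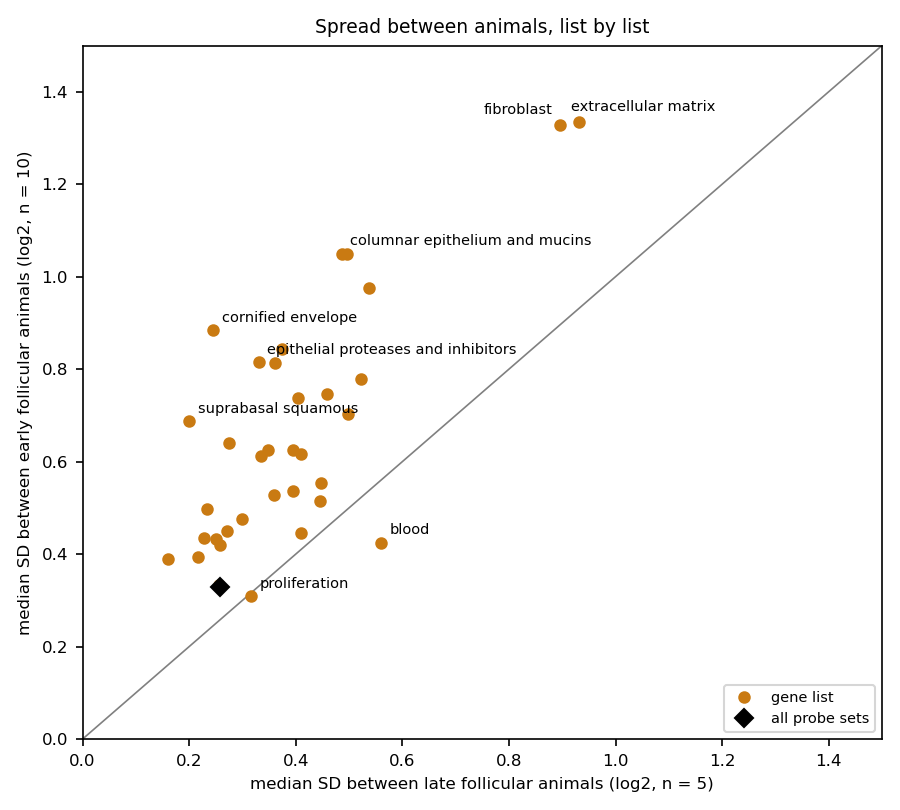
Median SD between animals of the genes of each list, late follicular on the x axis (n = 5) and early follicular on the y axis (n = 10), in log2 units, with the line of equal spread. Nearly all lists lie above the line, cornified envelope at 0.25 and 0.88, as does the diamond for all probe sets at 0.26 and 0.33.

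Lipid and glycogen genes, which serve the surface barrier and the sugar store of the epithelium, gave small differences. The 30 barrier lipid and cholesterol genes had a median of 0.09, with 24 above 0 and 0 that passed. It was 0.04 without early follicular replicate 9 and 0.15 without replicate 6. SMPD1, the acid sphingomyelinase that makes barrier ceramides, differed by 0.47 ± 0.19, and UGCG, which makes glucosylceramide, by -0.42 ± 0.20. Glycogen metabolism had a median of -0.07 over 14 genes, or -0.02 without early follicular replicate 4 or late follicular replicate 5, both from PHQ1. UGP2, which makes UDP-glucose for glycogen synthesis, read 9.75, 9.71, 9.66, 9.77 and 9.56 in late follicular samples against 9.67, 10.01 and 10.21. These values lay below the early follicular median, with a difference of -0.27 ± 0.09 (unadjusted p = 0.00743, limma adjusted p = 0.674). The glycogen synthase GYS2 lay under the brightness filter.

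Proliferation genes lay slightly lower in late follicular samples, with 25 of 28 differences below 0, a median of -0.21 and 0 that passed. MKI67, which encodes the division marker Ki-67, read 7.67, 8.32, 7.89, 8.01 and 8.13 against 7.30, 8.32 and 8.57, a difference of -0.29 ± 0.33. KIF23, a kinesin of cell cleavage, had -0.54 ± 0.37, PTTG1, securin, had -0.31 ± 0.19, and CCNA2, cyclin A2, had -0.27 ± 0.19. The list means were 7.84, 8.33, 7.85, 8.25 and 8.11 against 7.92, 8.24 and 8.57 in early follicular samples, so the groups overlapped. The median kept its sign under all 37 alternatives, between -0.42 and -0.12, but these alternatives share most of their samples. In PHQ1, the animal with both biopsies, the list mean went the other way, at 8.11 in the late and 8.03 in the early follicular biopsy. Growth factor genes had a median of -0.02 over 28 genes, between -0.11 and 0.02 with 1 sample left out at a time. EGFR, a receptor for EGF ligands on basal cells, had 0.31 ± 0.17, and NRG1, a ligand of the ERBB receptors, had -0.56 ± 0.37.

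Some defence genes had early follicular maxima far above the early follicular median. IL1A, interleukin 1 alpha, read 6.84, 5.4, 6.51, 6.75 and 6.53 in late follicular samples against 6.08, 6.78 and 12.22 for the lowest, median and highest early follicular values, a log2 difference of -1.26 ± 0.66. IL1B read 7.41, 6.60, 7.24, 5.89 and 6.25 against 5.86, 7.57 and 12.32, a difference of -1.33 ± 0.73. CCL20, a chemokine that draws dendritic and Th17 cells, read 5.16, 4.88, 5.05, 4.64 and 5.34 against 4.22, 5.81 and 12.47. No late follicular sample had the highest values of these cytokines, and the early follicular medians lay nearer the late follicular values than the early follicular maxima. IL1RL2, the receptor of interleukin 36, went the other way with 0.48 ± 0.21.

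By list, the 15 interleukin 1 and 36 genes had a median of 0.09, the 33 cytokines and chemokines one of -0.06, the 19 antimicrobial and S100 genes one of 0.02 and the 32 interferon and restriction genes one of 0.02. In these lists 0 genes passed. These medians moved with single samples: the interleukin median turned to -0.03 without early follicular replicate 8 and to -0.02 without replicate 9, the cytokine median was -0.17 without late follicular replicate 3, and the interferon median turned to -0.14 without early follicular replicate 3. S100P, a calcium-binding protein, had the lowest value of the antimicrobial list, -1.48 ± 0.93, and WFDC2, a secreted whey-acidic protein, had -0.96 ± 0.67. Interferon list means were 10.19, 9.50, 9.65, 9.76 and 9.58 against 8.48, 9.70 and 10.68. The columnar epithelium and mucin list had a median of -0.13 over 22 genes. It was -0.43 without early follicular replicate 5, -0.37 and -0.35 without late follicular replicates 3 and 1, and -0.06 without late follicular replicate 5. Its mean was highest, at 9.38, in early follicular replicate 9, the replicate with the lowest squamous means. DMBT1, a secreted scavenger receptor of glands, had -1.33 ± 0.78.

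HIV receptor and homing genes had a median of -0.22, or -0.12 without early follicular replicate 9, with 13 of 16 differences below 0 and 0 that passed. CD4, the primary receptor of the virus, read 5.93, 5.50, 5.99, 5.51 and 5.69 in late follicular samples against 5.45, 6.05 and 6.72 in early follicular ones, a difference of -0.34 ± 0.21. CXCR4, a coreceptor, read 7.53, 8.16, 7.72, 7.92 and 7.56 against 7.25, 8.09 and 10.17, a difference of -0.44 ± 0.35. All CD4 values of the late follicular samples lay below the early follicular median, and 4 of 5 CXCR4 values did. SDC3, an attachment proteoglycan, had -0.78 ± 0.36, and VCAM1, the adhesion molecule of inflamed vessels, had -0.94 ± 0.75. Transport genes had a median of -0.15 over 19 genes, or -0.04 and -0.29 without late follicular replicates 1 and 2. AQP1, a water channel of vessels, was at -0.77 ± 0.27.

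Stromal genes had the lowest list medians of the comparison. Of 34 extracellular matrix genes 33 had a difference below 0, with a median of -0.61, and all 17 fibroblast genes were below 0, with a median of -0.58. None passed. An unadjusted p under 0.05 was found for 1 matrix gene and 2 fibroblast genes, and over all 35 lists for 21 of 641 measured genes (3.28%), below the 6.20% of all named genes and the 7.36% of all probe sets. Fibroblast list means were 8.78, 8.50, 10.10, 8.73 and 8.92 in late follicular samples, against 7.89, 10.05 and 10.62 in early follicular ones. Late follicular replicate 3 was high and the other 4 lay below the early follicular median. Early follicular samples fell on either side of a gap, with replicates 3, 1, 5 and 7 between 7.89 and 8.55 and the other 6 between 9.82 and 10.62. Late follicular replicates 1, 4 and 5 lay within that gap, near its lower edge. In bulk tissue, fewer cells of a type and less RNA per cell cannot be told apart, and the depth of each pinch biopsy is not given.

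FAP, fibroblast activation protein, read 5.03, 3.08, 5.50, 4.65 and 4.13 in late follicular samples against 2.88, 6.83 and 8.44, a difference of -1.75 ± 0.80. BGN, the proteoglycan biglycan, read 10.62, 10.32, 11.91, 10.49 and 10.49 against 10.58, 11.61 and 12.33, a difference of -0.72 ± 0.29. In both genes most late follicular values lay below the early follicular median. SERPINF1, an antiangiogenic serpin of fibroblasts, had -1.21 ± 0.57, THY1, a fibroblast surface protein, had -1.08 ± 0.55, and COL1A1 had -0.81 ± 0.83. Matrix proteases and inhibitors had a median of -0.54 over 20 genes, with TIMP1, an inhibitor of metalloproteinases, at -1.0 ± 0.50. The stroma score, a mean of the fibroblast and smooth muscle list genes, was 8.22, 7.92, 8.93, 8.06 and 8.10 against 7.6, 8.89 and 9.38 in early follicular samples. It holds the fibroblast genes, so its likeness to the fibroblast list was fixed in advance. The part of the score in the other results was not tested beyond its use as a covariate, with which 0 probe sets passed.

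**Figure D4:**
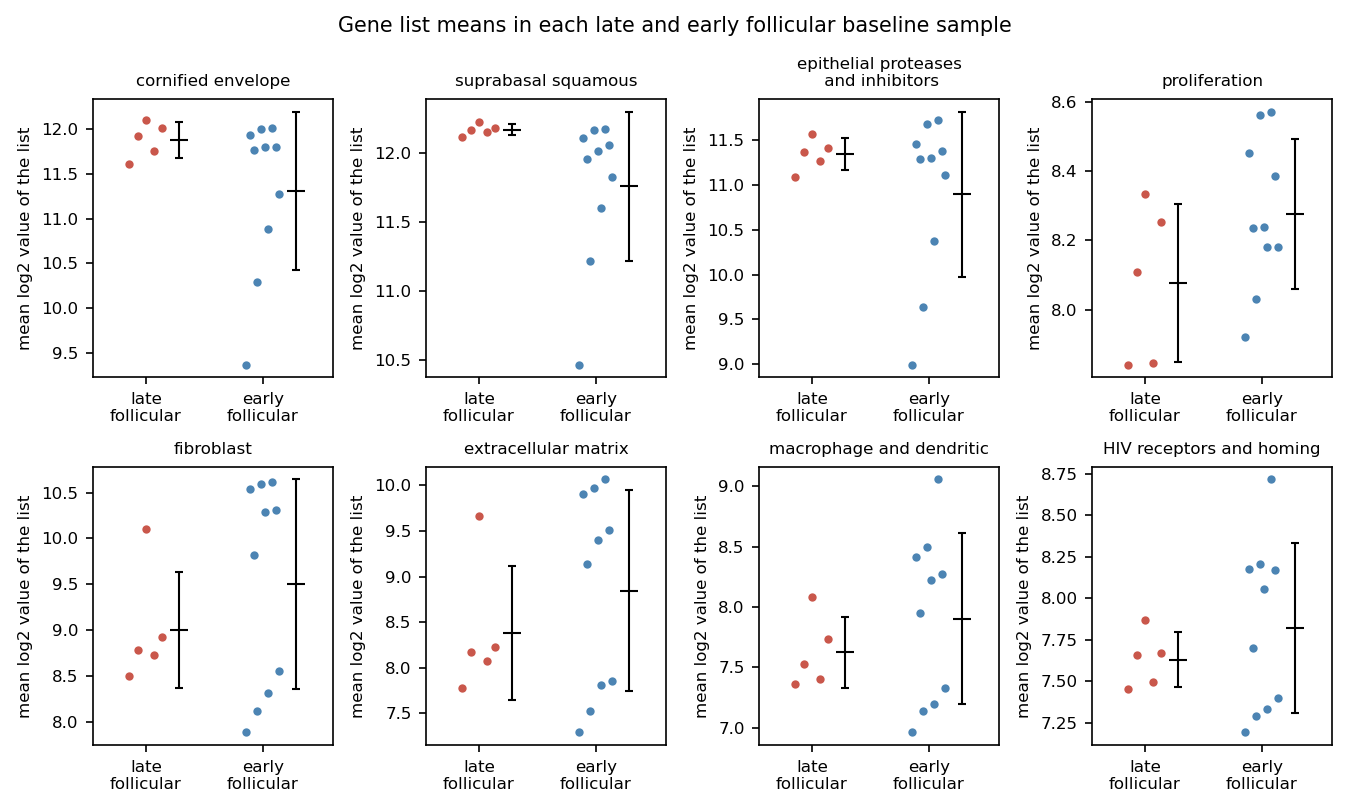
Means of 8 gene lists in each late follicular (n = 5) and early follicular (n = 10) sample, in log2 units, 1 point per sample, with the mean and SD as a black bar; each panel has its own scale. Suprabasal means lie between 12.12 and 12.23 in late follicular samples, and early follicular fibroblast means fall between 7.89 and 8.55 or between 9.82 and 10.62.

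Muscle, vessel and leukocyte lists had medians below 0 as well. Smooth muscle genes had a median of -0.28 over 15 genes and endothelial genes one of -0.24 over 23, and without late follicular replicate 2 these were -0.16 and -0.14. Macrophage and dendritic genes had a median of -0.38, with 19 of 22 below 0, and CSF1R, the receptor that keeps macrophages alive, read 7.6, 7.02, 8.04, 6.61 and 6.79 against 6.53, 8.02 and 9.44, a difference of -0.78 ± 0.36. CD68, a lysosomal marker of macrophages, had 0.23 ± 0.21. Mast cell genes had a median of -0.45 over 6 genes: CPA3, a mast cell carboxypeptidase, read 5.03, 4.44, 5.37, 4.68 and 4.87 against 3.76, 6.63 and 8.19, a difference of -1.54 ± 0.58, and KIT, the receptor mast cells need to survive, had -0.85 ± 0.40. Late follicular CPA3 values all lay below the early follicular median.

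Lymphocyte lists had medians of -0.19 for 16 T cell genes, -0.09 for 13 natural killer and cytotoxic genes and -0.30 for 11 B and plasma cell genes. In the B and plasma cell list DERL3, of the endoplasmic reticulum of plasma cells, had -0.50 ± 0.23, and CD22, a B cell receptor regulator, read 5.74, 6.19, 6.06, 5.38 and 6.11 against 5.54, 6.09 and 9.21. Its highest value was in early follicular replicate 9, which also had the highest T cell, B cell, macrophage and Langerhans cell list means of its group. Without that replicate the T cell median was -0.08, and without early follicular replicate 4 the natural killer median turned to 0.01. The 7 measured genes of the Langerhans cell list had a median of -0.36, or -0.16 without early follicular replicate 9 and -0.55 without replicate 5. CD207 and CD1A were not among them, so this list does not rest on the defining Langerhans cell genes. Its lowest member was FCGBP, at -0.53. Immediate early and stress genes had a median of -0.18 (-0.08 without early follicular replicate 5), with 18 of 22 below 0, and ZFP36, which destabilizes cytokine mRNAs, had -0.94 ± 0.59. None of the genes in these lists passed.

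PHQ1 gave both biopsies, so its 2 samples compare the phases within 1 animal, with no replicate. Its fibroblast mean was 8.92 in the late follicular and 10.54 in the early follicular biopsy, and its stroma score was 8.10 and 9.38. Its cornified envelope mean was 11.93 and 11.27. The list mean of the envelope was the higher and the stromal values were the lower of the pair in the late follicular biopsy. The hormone genes differed in direction, with PGR at 9.92 and 9.0, GREB1 at 10.24 and 9.28, and ESR1 at 10.28 and 10.76. Of the squamous genes, ALOXE3 was at 11.10 and 7.83. RHCG, at 13.20 and 13.29, and SCEL, sciellin, a precursor of the envelope, at 11.41 and 11.48, hardly differed.

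Within the later arms, which are not treatments at this time, several list medians had opposite signs. Extracellular matrix had a median of 0.37 among animals of the LNG arm (3 late and 3 early follicular) and -1.06 among those of the DMPA arm (2 and 7). Fibroblast medians were 0.19 and -1.01, macrophage and dendritic medians 0.17 and -0.80, and cornified envelope medians -0.09 and 0.39. Proliferation was below 0 in both, at -0.12 and -0.23. The stromal and macrophage medians thus did not have the same sign in both sets of animals. The difference between arms was itself tested with limma as an interaction: 0 probe sets passed, the lowest adjusted p was 1, and 951 had an unadjusted p under 0.05. Of the 159 genes named by rule, 51 had opposite signs in the arms.

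**Figure D5:**
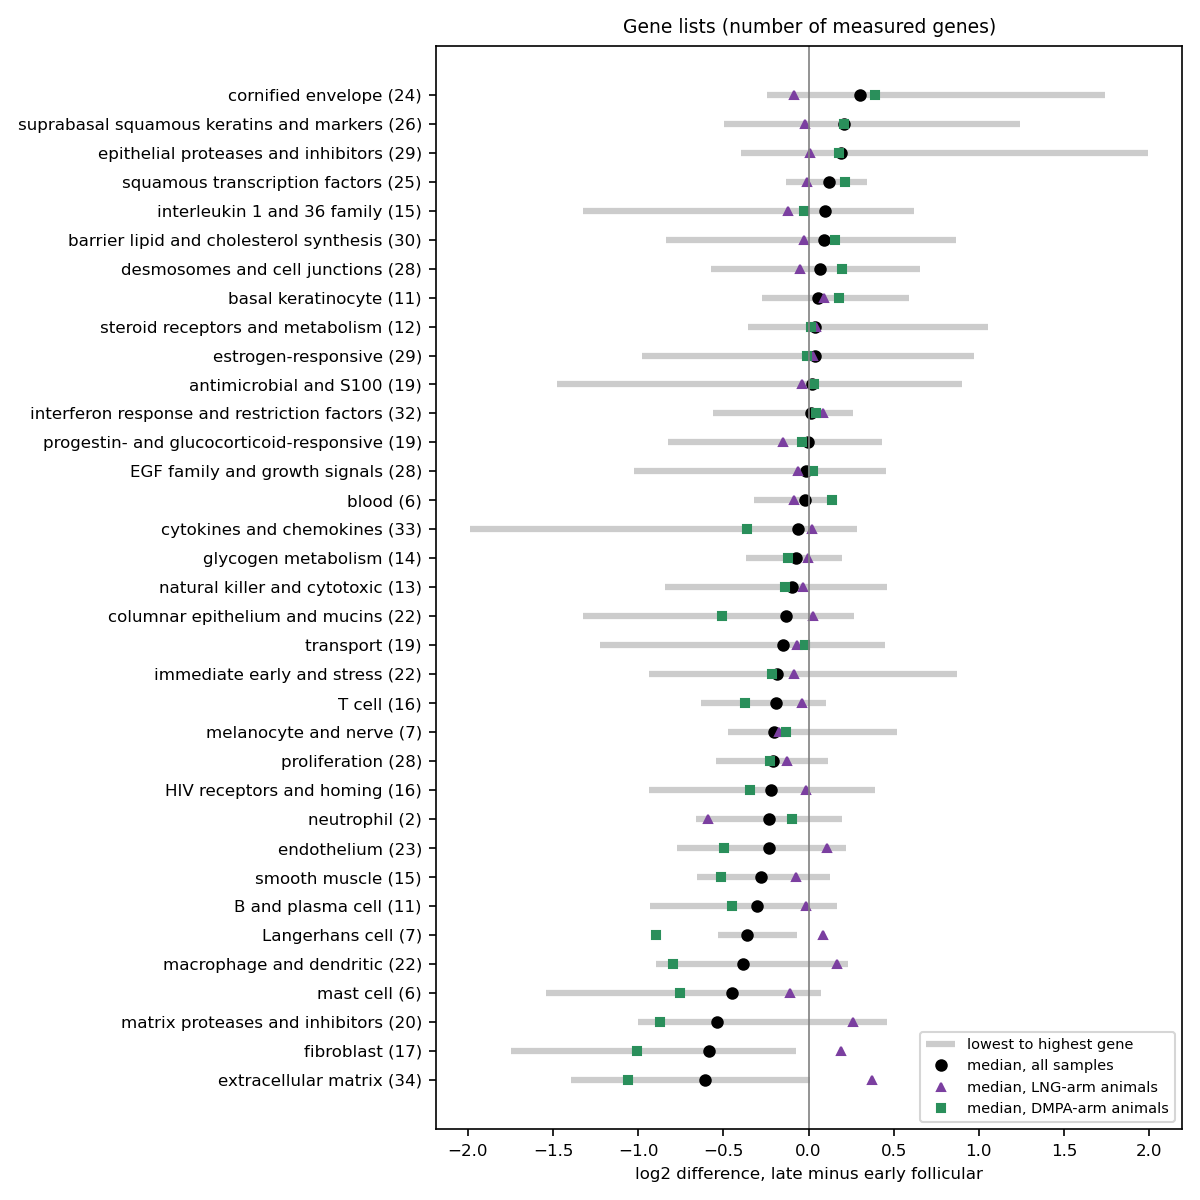
Median log2 difference, late minus early follicular, of the genes of each of 35 lists (black circles), with the medians within the LNG-arm animals (triangles) and the DMPA-arm animals (squares); grey bars run over the lowest to the highest gene in the fit of all samples. Extracellular matrix lies at -0.61, with 0.37 and -1.06 in the arms, and cornified envelope at 0.30, with -0.09 and 0.39.

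The same late follicular samples were also set against the luteal baselines. These contrasts share the late follicular samples. Against early luteal samples (n = 4) 0 probe sets passed (0%), with a lowest adjusted p of 0.0626 by limma and 3482 at an unadjusted p under 0.05. Against late luteal samples (n = 9) 4365 passed (13.8%), 1912 higher (6.05%) and 2453 lower (7.76%) in late follicular samples. This count was 2830, 1661 or 1374 without late follicular replicate 1, 2 or 5, and 0 once the stroma score entered the fit, a score that averaged 8.25 in late follicular and 9.67 in late luteal samples. With the GAPDH 3′ minus 5′ signal in the fit, which averaged 1.50 and 1.81, it was 338, and it was 0 within the LNG arm and 415 within the DMPA arm.

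Several genes that did not pass against early follicular samples passed against late luteal ones. FAP was lower by a log2 difference of -3.96 ± 0.80 (limma adjusted p = 0.0053), CPA3 by -3.09 ± 0.58 (p = 0.00429) and CSF1R by -1.53 ± 0.36 (p = 0.0107). HSD17B2 was higher by 3.26 ± 0.82 (p = 0.014) and OCA2, a melanosome transporter, by 2.25 ± 0.44 (p = 0.00502), beside 0.52 ± 0.44 against early follicular samples. PRSS8, the epithelial protease prostasin, was higher by 0.97 ± 0.28 (p = 0.0237). PGR and ESR1 did not pass, at -0.03 ± 0.38 and 0.06 ± 0.21. The cornified envelope median was 0.99 against late luteal samples with 0 of 24 genes that passed, and the fibroblast median was -1.72 with 11 of 17 lower.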

How the data were processed

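The deposited values were log2 expression values per probe set of Affymetrix rhesus macaque arrays, made by the authors with affy and Partek, per the submitters' processing notes. The background correction and normalization are not given in the sources used here. Total RNA of each biopsy was labelled with biotin, per the labels' protocols. The 58 arrays came from 57 samples of 15 animals, and the duplicate array was averaged with its partner.

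Of 52865 probe sets, 158 controls and those with a mean below the 40th percentile (log2 5.53) were left out, which left 31624. Probe sets were named from the platform annotation: 24969 had 1 symbol, 361 several and 27535 none, and a gene was represented by its brightest probe set (11199 genes). Differences were fitted with limma 3.58.1 (R 4.3.3, statmod 1.5.0) over all 28 baseline samples, with the animal as a random block, so a fitted difference need not equal the difference of raw means. Benjamini-Hochberg adjustment ran over all probe sets tested, with a threshold of 0.05, and the fit was tested on simulated data. Single values were compared with exact permutation tests over 3003 arrangements (scipy 1.17.1). The number of arrays limits the precision.

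Genes were named by rule: the 10 with the smallest p in each direction, up to 4 of the smallest p in each of 35 lists, and a set of hormone and squamous genes, 159 in all. KRT4, CD68, COL1A1, LORICRIN, CCL20 and the probe sets without overlap were named outside it, after their values were seen. The lists held 1009 genes, of which 641 were measured. Groups, lists and rules were chosen with earlier results of these data known. Replicate numbers did not pair samples: 0 of 5 same-numbered pairs came from the same animal.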

Additional observations from a re-analysis of the deposited data

Results flagged for a closer look

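Single samples stood far from the rest of their group in 35 of 394 tests of a group's highest or lowest value (8.88%), 16 in late follicular and 19 in early follicular samples. For independent, normally distributed values chance would give about 1 in 20 groups. These genes and list means share samples, and many genes were named for a small p, so 8.88% cannot be read against that share. Each flagged sample was picked because its gap to the nearest sample was large against the group's range, and none was explained.

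Late follicular replicate 3 held the highest stromal values of its group: BGN at 11.91, TIMP1 at 11.08, THY1 at 8.66, the extracellular matrix list mean at 9.66 and the fibroblast list mean at 10.10. Its mast cell and dendritic receptor gene FCER1A was high at 7.46, while SPINK6 was low at 9.19 and the neutrophil list mean low at 7.17. That list mean averages only 2 measured genes of 14 listed, CSF3R and S100A12, with log2 differences of -0.66 and 0.19 between the phases. Late follicular replicate 2 was low in IL1A at 5.4, in IFITM1 at 11.37 and in KCNMB1, a subunit of a muscle potassium channel, at 4.67. Replicate 5 was low in EPCAM at 8.35, in ZFP36 at 4.55 and in the immediate early list mean at 8.79. Replicate 4 was low in ADAMTS1, a matrix protease, at 5.78, and replicate 1 had the highest GAPDH 3′ minus 5′ difference, 1.92.

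In the early follicular group, replicate 9 was high in lymphoid and dendritic genes, with CXCR4 at 10.17, CD22 at 9.21, CD1C at 8.47 and CCR7 at 9.35, and in FKBP5 at 9.19. It was low in CLCA2, an epithelial gene, at 9.97. Replicate 5 was high in LELP1 at 6.72, NRG1 at 11.17, L1CAM at 7.21 and the basal keratinocyte list mean at 10.69, and low in the epithelial transcription factor EHF at 11.17 and in FGFR2 at 7.40. Replicate 1 was low in IL33 at 3.93 and in TRAT1 at 4.26. Replicate 3 was low in HBB at 8.99 and in the interferon list mean at 8.48. Replicate 2 was high in IL1A at 12.22, replicate 4 low in MKI67 at 7.30, and replicate 10 had the highest actin 3′ minus 5′ difference, 1.68.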

How the results depend on the processing

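Between late and early follicular samples 0 probe sets passed under 36 of 37 alternatives, and leaving out 1 sample at a time gave between 0 and 1, in the higher direction too. The 1 was the ZNF471 probe set without early follicular replicate 4. Counts at an unadjusted p under 0.05 ran between 471 and 4510, and were 471 within the LNG arm and 4510 with array weights. The GAPDH difference ran between -0.18 and -0.02, and that of actin between -0.058 and 0.028, or -0.052 and 0.028 when 1 sample at a time was left out. The actin difference turned to 0.028 without early follicular replicate 10. With the replicate block, on the 10 numbered samples, 0 passed and 1106 had an unadjusted p under 0.05, against 1080 for the same samples without it, an alternative chosen after seeing the data. Same-numbered samples correlated between -0.32 and 0.17, and 1 of 5 correlated best with its own number. Against late luteal samples, where the count ran between 0 and 8882 over 34 alternatives, the stroma score as a covariate reversed FADS2 (0.54), SFRP1 (0.079), BGN (0.087), TIMP1 (0.32), SERPINF1 (0.26), THY1 (0.023) and MS4A2 (0.069), and the cause was not tested. The stroma score is made of fibroblast and smooth muscle list genes, SERPINF1 among them, so such genes were in part adjusted for themselves. The sign of the median held under all alternatives for 7 of 35 lists. With 5 late follicular samples, small differences of genes that vary between animals were not detectable, and larger ones could be missed too. Fitted differences of -1.75 ± 0.80 for FAP and 1.06 ± 0.82 for HSD17B2 did not pass.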
